A study of Mus musculus with 11 samples.

Results

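The gene Wnt8a, its upstream neighbour Fam13b on the opposite strand and 5 genes of the Wnt pathway, Axin2, Tcf7l1, Ctnnb1, Apc and Gsk3b, were examined in nascent RNA of mouse embryonic stem cells. They are 7 of the 13088 genes in the deposited exon-based table and were found by symbol. Of the 5867 upstream antisense RNA (uaRNA) regions, which are transcribed away from a promoter in the direction opposite to its gene, 5 belong to these genes by gene identifier, while Wnt8a and Axin2 have no row there. Wnt8a was selected on its exon reads, which were higher in the libraries labelled siZC3H4, so its change is described and not tested. The other members were taken for their place in the pathway or beside Wnt8a. All 7 genes and all 5 uaRNAs passed the filter on low values, a mean of 10 or more reads over the libraries.

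Libraries were made by transient transcriptome sequencing (TT-seq), which recovers RNA that took up 4-thiouridine during a short pulse. Wild-type F121-9 cells, a female CAST/129 hybrid line, received 30 nM of an siRNA against Zc3h4 (siZC3H4, replicates 2 and 3) or 30 nM of a non-targeting siRNA (siNT, replicates 1, 2 and 3). Cells were exposed to 500 µM 4-thiouridine for 20 minutes and harvested 47 hours after transfection. All 5 libraries came from serum-free medium with LIF, 1 µM of the MEK inhibitor PD0325901 and 3 µM of the GSK3 inhibitor CHIR99021. ZC3H4 is a subunit of the Restrictor complex, which attenuates noncoding transcription. The series calls the samples biological replicates without saying whether they were separate cultures, so part of the spread behind the p-values may be technical. A further 3 dTAG13 and 3 DMSO samples, from cells with a degradable ZC3H4, are not analysed here.

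Exon reads recovered from the tables totalled 26548710 and 16173640 in the libraries labelled siZC3H4, against 14840637, 17563244 and 18479834 in the siNT libraries. Reads given for genes, regions and marker lists, here and below, are depth-normalized unless called sequenced or recovered. Exon reads of Zc3h4 itself were 7285 and 6718 in the libraries labelled siZC3H4 and 3465, 3610 and 3363 in the siNT libraries. Nascent reads of the siRNA target were thus higher in the libraries labelled siZC3H4 (log2 1.01 ± 0.11 SE, limma adjusted p = 0.00431). The mature mRNA was not measured, so the knockdown could not be checked here. Each direction below is that of the labelled libraries. Recovered uaRNA reads totalled 2648683 and 1448879 in the libraries labelled siZC3H4 and between 996927 and 1195995 in the siNT libraries. After depth normalization these totals were 1.50e+06 and 1.39e+06 in the libraries labelled siZC3H4 and between 897133 and 1.02e+06 in the siNT libraries. All 8 pluripotency markers listed were in the table. Their summed exon reads were between 75986 and 92314 in the libraries labelled siZC3H4 and between 89522 and 106425 in the siNT libraries. Dppa5a was lower without overlap (12940 and 13611 against 16900, 15464 and 15655), as were 12.8% of all genes tested, and the other pluripotency markers overlapped. None of 4 trophoblast markers was in the table. Summed neural markers (4 of 4 in the table) were higher in the libraries labelled siZC3H4, between 1892 and 1944 against 1310 to 1595 in the siNT libraries. Most of these reads came from Tubb3 (1435 and 1050 against 962, 940 and 629) and from Nes, which overlapped (424 and 751 against 577, 310 and 871). Sox1 and Pax6 had at most 70.7 and 24.3 reads. Tubb3, Sox1 and Pax6 were higher without overlap, as were 19.5% of all genes tested. Endoderm markers (3 of 5, 95.6 to 122 against 57.4 to 105) and fibroblast markers (2 of 4, without the collagen genes, 1906 to 2404 against 1381 to 1987) overlapped. No marker of these lists passed the test, and their part in the results below was not tested.

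Wnt proteins are secreted, lipid-modified ligands that bind Frizzled receptors and the co-receptors LRP5 and LRP6. Without a ligand, a destruction complex built on APC and AXIN lets casein kinase 1 and GSK3 phosphorylate β-catenin, which is then degraded. With a ligand, β-catenin accumulates and binds TCF/LEF factors at target genes. In mouse embryonic stem cells TCF7L1 restrains genes of the pluripotency network, and an inhibitor of GSK3, as was in the medium of all libraries, stabilises β-catenin downstream of the ligands.

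Wnt8a encodes a ligand that the mouse embryo makes around gastrulation, in the posterior epiblast and primitive streak. The gene (ENSMUSG00000012282, mm10 chromosome 18, 34542327 to 34548061, plus strand) had 78.7 and 54.5 depth-normalized exon reads in the libraries labelled siZC3H4, against 9, 16.5 and 8.53 in the siNT libraries. Every library labelled siZC3H4 was above every siNT library. These values came from 139 and 57 sequenced reads in the libraries labelled siZC3H4 and from 9, 19 and 10 in the siNT libraries. The means were 66.6 ± 17.1 (SD, n = 2) in the libraries labelled siZC3H4 and 11.4 ± 4.48 (SD, n = 3) in the siNT libraries, a ratio of 5.87. On the log2(value + 1) scale used for all fold changes here, which understates the change of low genes, the difference was 2.49. Of 12482 genes with a mean of 10 or more over the 5 libraries, 10 had a larger one.

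The level of Wnt8a remained low in either group. Per kb of transcript it had 43.8 ± 11.2 exon reads (SD, n = 2) in the libraries labelled siZC3H4 and 7.47 ± 2.95 (SD, n = 3) in the siNT libraries, and the siNT level exceeded that of 3.44% of the 12482 genes. In bulk libraries more cells with Wnt8a transcription and more transcription per cell cannot be told apart. Genes of the same low level were set beside it as a description. The deposited table held 399 genes, Wnt8a included, whose siNT mean lay within the range of its 3 siNT values. They had a median log2 fold change of 0.39 (quartiles at -0.02 and 0.94), and 297 of them lay above 0. Without overlap between the groups, 144 of the 399 were higher in the libraries labelled siZC3H4, or 36.1%, where the share over all 12482 genes was 19.5%. These shares are not like for like, since the 399 were taken without the filter on low values. They were also chosen by siNT values, which are part of the contrast, and how far that choice raised their fold changes was not tested. A larger log2 fold change than that of Wnt8a, itself selected for its rise, was seen for 2 of the 399.

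**Figure D1:**
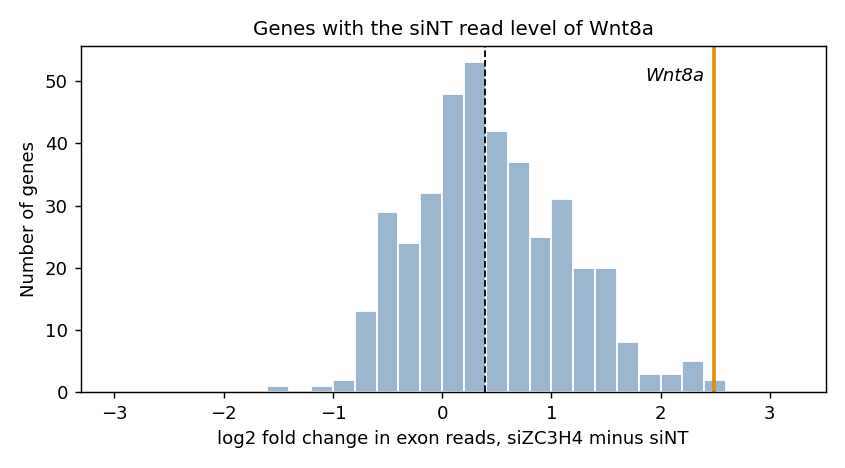
Histogram of log2 fold changes in exon reads (siZC3H4 minus siNT, on log2(value + 1)) for the 399 genes whose siNT mean lay within the siNT range of Wnt8a. The vertical axis counts genes, the dashed line is their median of 0.39, and the orange line marks Wnt8a at 2.49, near the upper end of the distribution.

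The genes whose profile over the 5 libraries was most like that of Wnt8a were found by the root mean square difference of log2 values after subtracting each gene's own mean. The closest was the lncRNA Platr6 at 0.20, followed by the kinase-like gene Stkld1 and the lncRNA Gm12758, each at 0.21, the lncRNA Gm16343 at 0.22 and the protein-coding gene 1700018B08Rik at 0.26. The median over all 12481 other genes was 1.28. Platr6 had 178 and 126 exon reads in the libraries labelled siZC3H4 and 20, 47.0 and 28.2 in the siNT libraries. The measure selects genes by the same contrast, so their fold changes are not given as results.

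Primitive streak genes were read as markers of the other cells that make Wnt8a. Of 6 listed, T, Mixl1 and Eomes were in the table. Their summed exon reads were between 367 and 594 in the libraries labelled siZC3H4 and between 349 and 494 in the siNT libraries. T, which encodes the mesoderm factor Brachyury and is also a β-catenin target, had 344 and 187 exon reads in the libraries labelled siZC3H4 and 293, 274 and 137 in the siNT libraries, so the groups overlapped. None of the 3 passed the limma test after Benjamini-Hochberg adjustment (threshold 0.05), and their part in the difference of Wnt8a was not tested.

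Fam13b (ENSMUSG00000036501, mm10 chromosome 18, 34442351 to 34506833, minus strand) lies upstream of Wnt8a and is transcribed away from it. The gene starts are 35494 bases apart in the deposited table. RefSeq (GRCm38.p6) places the outermost Fam13b start at 34523047, which leaves 19280 bases, and lists 0 genes wholly within that interval. Exon reads of Fam13b were 1156 and 1389 in the libraries labelled siZC3H4 and 1181, 1115 and 1419 in the siNT libraries. The groups overlapped, and the log2 fold change was 0.04 (95% confidence interval -0.30 to 0.38, limma adjusted p = 0.948).

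The uaRNA of Fam13b leaves its promoter on the plus strand, the strand of Wnt8a. It had 75.8 and 74.6 reads in the libraries labelled siZC3H4 and 67, 57.4 and 72.5 in the siNT libraries. Both libraries labelled siZC3H4 were above every siNT library, as were 73.7% of the 5124 uaRNAs tested. The log2 fold change of 0.20 ± 0.30 (SE) did not pass the limma test (adjusted p = 0.554). It lay 0.68 below the median of 0.88 over all 5124 uaRNAs, and under a scaling taken from the uaRNA values alone, which removes that median, its sign turned to -0.68 (median of ratios) and -0.66 (TMM). The first passed the limma test as a fall (adjusted p = 0.0491), as did 11.5% of all uaRNAs at that scaling, and the second did not (adjusted p = 0.0566). The table gives no coordinates for uaRNA regions, so how far this region reaches towards Wnt8a is unknown.

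The other genes around Wnt8a with enough reads to be tested showed no call. Within 200 kb of the interval that spans Fam13b and Wnt8a, the nearest genes in the table were Srp19, Reep5 and Pkd2l2 on the side of Fam13b and Brd8dc, Brd8 and Kif20a beyond Wnt8a. Exon log2 fold changes were 0.03 ± 0.24 (SE) for Srp19, which encodes a signal recognition particle subunit, and -0.01 ± 0.20 for Reep5. They were 0.07 ± 0.16 for Brd8, which encodes a bromodomain subunit of a histone acetyltransferase complex, and -0.02 ± 0.12 for Kif20a, a mitotic kinesin gene. None of these 4 passed the limma test. Pkd2l2, with 14.1 and 9.56 exon reads in the libraries labelled siZC3H4 and 12, 5.22 and 6.83 in the siNT libraries, had too few reads to be tested.

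Brd8dc, the next gene of the table downstream of Wnt8a and on the opposite strand, had 25.5 and 52.6 exon reads in the libraries labelled siZC3H4, against 83, 54.8 and 127 in the siNT libraries. Both libraries labelled siZC3H4 were below every siNT library, as were 12.8% of all genes tested, and the log2 fold change of -1.16 ± 0.41 (SE) did not pass the limma test (adjusted p = 0.206). The uaRNA of Srp19 had 1359 and 1041 reads in the libraries labelled siZC3H4 and 553, 487 and 496 in the siNT libraries. It rose by log2 1.22 ± 0.21 (SE, limma adjusted p = 2.32e-06), against a median of 0.88 over all uaRNAs.

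**Figure D2:**
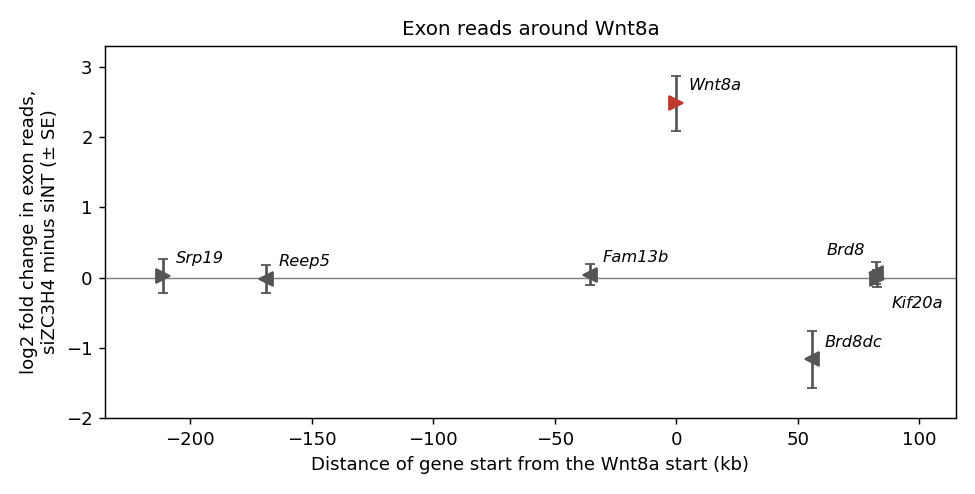
Exon log2 fold change (siZC3H4 minus siNT, ± SE from limma) of the tested genes around Wnt8a against the distance of each gene start from the Wnt8a start in kb; arrowheads point in the direction of transcription. Wnt8a stands at 2.49, Brd8dc at -1.16, and the other 5 genes lie between -0.02 and 0.07.

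Among the members of the pathway, Axin2, Ctnnb1, Apc and Gsk3b had overlapping exon reads in the groups, and Tcf7l1 was slightly higher in the libraries labelled siZC3H4 without passing the test. Over all 12482 genes 2.22% rose and 0.144% fell by limma at an adjusted p under 0.05, 2.36% together, and the median log2 fold change was 0.01. These shares rest on few libraries: without siNT replicate 1, 2 genes rose, without siZC3H4 replicate 2, 10 rose, and without siNT replicate 3, 676 rose, against 277 with all 5 libraries. Per kb of transcript, the order of the siNT levels was Ctnnb1, Axin2, Fam13b, Tcf7l1, Gsk3b, Apc and Wnt8a, and neighbours in that order did not overlap. In the libraries labelled siZC3H4 the ranges of Fam13b (345 and 414 exon reads per kb) and Tcf7l1 (353 and 389) overlapped, and the order of the others was the same.

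**Figure D3:**
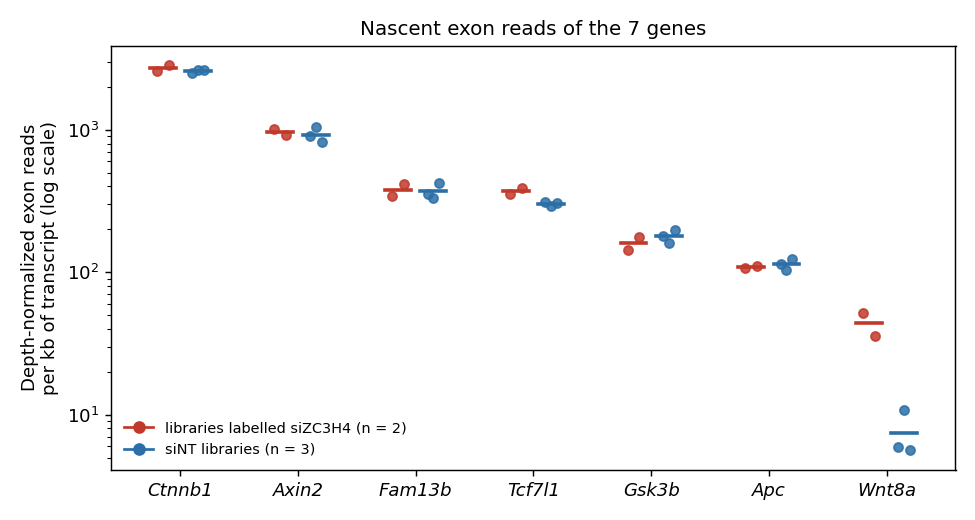
Depth-normalized exon reads per kb of transcript (log scale) of the 7 genes in each library, with points for libraries and bars for group means; the 2 libraries labelled siZC3H4 stand left of the 3 siNT libraries. The groups are apart for Wnt8a, with means of 43.8 in siZC3H4 and 7.47 in siNT, and for Tcf7l1, with means of 371 in siZC3H4 and 302 in siNT, and overlap for the other 5 genes.

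Ctnnb1, which encodes β-catenin (ENSMUSG00000006932, mm10 chromosome 9, 120933488 to 120960507), had 9153 and 9973 exon reads in the libraries labelled siZC3H4 and 8819, 9164 and 9278 in the siNT libraries. The log2 fold change was 0.07 (95% confidence interval -0.17 to 0.32, limma adjusted p = 0.847). Axin2, a scaffold of the destruction complex that is itself switched on by β-catenin and so serves as a readout of the pathway (ENSMUSG00000000142, chromosome 11, 108920349 to 108950783), had 4309 and 3928 exon reads against 3860, 4453 and 3486 in the siNT libraries. Its log2 fold change was 0.07 (95% confidence interval -0.23 to 0.37, limma adjusted p = 0.883). The highest and the lowest of its 5 values were both in siNT libraries. With the GSK3 inhibitor in all media, β-catenin is stabilised downstream of the ligands, and a response of Axin2 to Wnt8a was not tested.

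Apc, the tumour suppressor gene that encodes a large scaffold of the destruction complex (ENSMUSG00000005871, chromosome 18, 34220984 to 34322190), had 1325 and 1372 exon reads in the libraries labelled siZC3H4 and 1429, 1298 and 1544 in the siNT libraries (log2 -0.07, 95% confidence interval -0.36 to 0.21, limma adjusted p = 0.871). Gsk3b, the gene of one of the kinases that CHIR99021 inhibits (ENSMUSG00000022812, chromosome 16, 38089389 to 38246079), had 1127 and 1402 exon reads in the libraries labelled siZC3H4 and 1417, 1269 and 1561 in the siNT libraries. The groups overlapped for both genes, and for Gsk3b the log2 fold change was -0.17 (95% confidence interval -0.50 to 0.17, limma adjusted p = 0.697).

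Tcf7l1, the gene of the TCF factor that restrains the pluripotency network (ENSMUSG00000055799, chromosome 6, 72626371 to 72789229), had 1068 and 1178 exon reads in the libraries labelled siZC3H4, against 938, 881 and 923 in the siNT libraries. Both libraries labelled siZC3H4 were above every siNT library, as were 19.5% of all genes tested. The log2 fold change was 0.30 (95% confidence interval 0.01 to 0.58) and did not pass the limma test after adjustment over all genes (adjusted p = 0.305).

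The promoters of members were looked up because uaRNAs start there, and sequences for 4 of the 7 genes, Axin2, Tcf7l1, Ctnnb1 and Gsk3b, were taken from RefSeq (GRCm38.p6), each from 250 bases before the gene start to 50 after it. The letters CTTTGA and CTTTGT, forms of the core that TCF/LEF factors bind, were searched on both strands. One or the other was present in 31.2% of the 32851 promoters in the table. In the sequences below, written 5′ to 3′ on the strand of the gene, capitals mark such a match. Axin2 (chr11:108920099-108920398, plus strand) is shown as the pathway's target gene, Tcf7l1 (chr6:72788996-72789295, minus strand) as the member whose uaRNA had the largest fold change, and Gsk3b (chr16:38088751-38089050, plus strand) as the member whose uaRNA reads came closest to its exon reads.
Axin2: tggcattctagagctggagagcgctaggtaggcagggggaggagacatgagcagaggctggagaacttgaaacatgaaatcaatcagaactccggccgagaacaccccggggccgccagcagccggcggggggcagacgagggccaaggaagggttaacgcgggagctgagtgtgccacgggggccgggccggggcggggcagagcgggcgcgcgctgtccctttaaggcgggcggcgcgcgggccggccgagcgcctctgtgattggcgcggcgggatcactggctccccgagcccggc
Tcf7l1: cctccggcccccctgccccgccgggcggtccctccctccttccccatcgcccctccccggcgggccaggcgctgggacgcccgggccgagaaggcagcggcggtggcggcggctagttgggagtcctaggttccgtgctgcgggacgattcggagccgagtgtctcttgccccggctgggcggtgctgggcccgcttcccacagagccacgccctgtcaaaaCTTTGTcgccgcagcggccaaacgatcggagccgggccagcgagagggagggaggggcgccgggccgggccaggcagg
Gsk3b: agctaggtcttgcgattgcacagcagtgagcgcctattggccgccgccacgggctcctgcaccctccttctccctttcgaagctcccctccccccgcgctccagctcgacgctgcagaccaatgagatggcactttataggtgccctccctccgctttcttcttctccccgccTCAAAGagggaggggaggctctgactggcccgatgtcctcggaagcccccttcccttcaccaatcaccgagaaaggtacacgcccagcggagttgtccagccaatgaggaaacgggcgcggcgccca
Tcf7l1 held CTTTGT beginning 28 bases before the start, and Gsk3b held 1 match on the antisense strand, 77 bases before the start. Axin2 and both Ctnnb1 windows held no match. The polyadenylation signal AATAAA and the splice-donor-like GGTAAG, searched on the antisense strand in the 250 upstream bases, were in none of the 5 windows and in 9.49% and 3.72% of all promoters. At such shares, absence from 5 windows carries little weight, and both Ctnnb1 windows overlap each other. The windows were 63% to 75.3% G and C, against a median of 52.7% over all promoters. The positions of the matches are counted from the RefSeq starts. The RefSeq start of Tcf7l1 lies 184 bases downstream of the one in the deposited table, so its match lies downstream of the deposited start, and that of Gsk3b lies upstream of the deposited one. A match describes letters in a window and does not show that a factor binds there.

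Among the members, 3 of 5 uaRNAs rose, and none of the 6 exon changes tested passed. Over all 5124 uaRNAs tested, 62.1% rose and 1.13% fell by limma, 63.2% together, with a median log2 fold change of 0.88. Without siZC3H4 replicate 2, 1840 rose, against 3180 with all 5 libraries. The uaRNAs of Tcf7l1, Apc and Gsk3b rose and those of Fam13b and Ctnnb1 did not pass the test. For all 5, the lower library labelled siZC3H4 lay above the highest siNT library, as it did for 73.7% of all uaRNAs, and 2.11% lay below without overlap. These rises are relative to the depth factors in the deposited values, which both tables share. With median-of-ratios factors from the uaRNA values alone, Tcf7l1 and Apc kept a positive sign without passing the test (log2 0.36 and 0.15), Gsk3b lay at -0.036 and Ctnnb1 at -0.38. Fam13b then passed the limma test as a fall (log2 -0.68, adjusted p = 0.0491), though not with TMM factors (adjusted p = 0.0566).

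The Tcf7l1 uaRNA had 175 and 167 reads in the libraries labelled siZC3H4, against 65, 60.9 and 93.9 in the siNT libraries. Its rise was 2.36-fold, or 1.24 ± 0.28 (SE) in log2 (limma adjusted p = 1.41e-04). The Apc uaRNA had 154 and 120 reads in the libraries labelled siZC3H4 and 70, 48.7 and 85.3 in the siNT libraries, higher by 2.04-fold, or 1.03 ± 0.29 (SE) in log2 (limma adjusted p = 0.00187). Without siZC3H4 replicate 2 its log2 fold change was 0.85 and the limma adjusted p was 0.0734. The Gsk3b uaRNA had 779 and 650 reads in the libraries labelled siZC3H4 and 425, 343 and 417 in the siNT libraries and rose by 1.81-fold, or 0.85 ± 0.22 (SE) in log2 (limma adjusted p = 7.33e-04), close to the median uaRNA. The Ctnnb1 uaRNA was sparse, with 36.2 and 23.9 reads in the libraries labelled siZC3H4 and 23, 20.9 and 18.8 in the siNT libraries (log2 0.48, 95% confidence interval -0.29 to 1.26, limma adjusted p = 0.270).

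**Figure D4:**
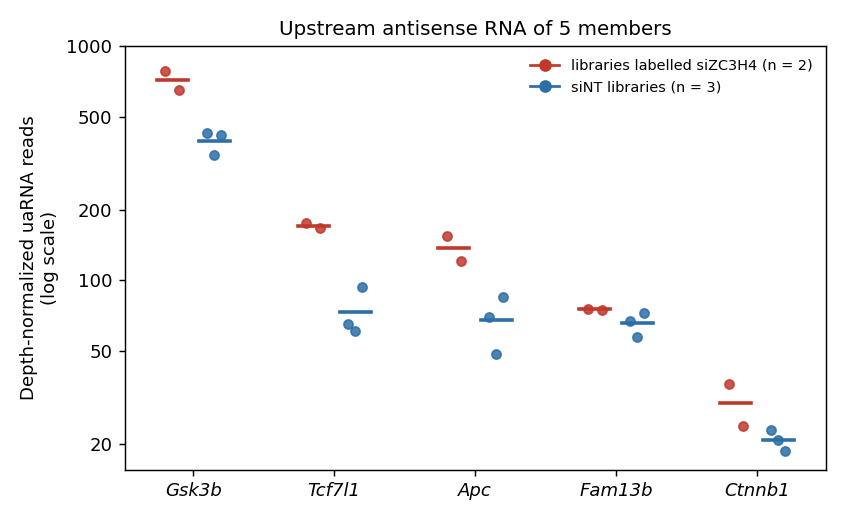
Depth-normalized uaRNA reads (log scale) of the 5 members with a uaRNA row, by library, with bars for group means; the 2 libraries labelled siZC3H4 stand left of the 3 siNT libraries. The lengths of the regions are not given, so heights are read within a gene: the means differ most for Tcf7l1 (171 in siZC3H4, 73.2 in siNT) and least for Fam13b (75.2 in siZC3H4, 65.6 in siNT).

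Because the depth factor of a library is the same in both tables, it cancels when uaRNA reads are divided by the exon reads of the same gene. For Gsk3b this ratio was 69.1% and 46.4% in the libraries labelled siZC3H4 and 30.0%, 27.0% and 26.7% in the siNT libraries. For Tcf7l1 it was 16.4% and 14.2% against 6.93%, 6.91% and 10.2% in the siNT libraries, and for Apc 11.7% and 8.78% against 4.90%, 3.75% and 5.52%. In these 3 genes both libraries labelled siZC3H4 were above every siNT library. The share of all genes for which this ratio did so was not computed. For uaRNA reads alone that share was 73.7% of all uaRNAs, so the 3 are not set apart from other genes here. On the log2 scale the ratio differed by 1.02 for Gsk3b, 0.95 for Tcf7l1 and 1.11 for Apc, each with a two-sided exact permutation p of 0.1 (0.167 adjusted over 5 genes). With 2 and 3 libraries no split can give a smaller p.

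The same ratio for Fam13b was 6.56% and 5.37% in the libraries labelled siZC3H4 and 5.67%, 5.15% and 5.11% in the siNT libraries, which overlapped (difference 0.16 on the log2 scale, exact permutation p = 0.3, adjusted 0.3). Ctnnb1 had the lowest ratio of the 5 genes, 0.396% and 0.240% in the libraries labelled siZC3H4 and 0.261%, 0.228% and 0.202% in the siNT libraries. Its groups overlapped too, with a difference of 0.41 on the log2 scale (exact permutation p = 0.3, adjusted 0.3). That difference was 0.06 without siZC3H4 replicate 2 and 0.76 without siZC3H4 replicate 3, and the one for Gsk3b was 0.73 and 1.31.

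The rest of the Wnt pathway was read from a list of 100 genes besides Wnt8a, drawn up by role and including Axin2, Tcf7l1, Ctnnb1, Apc and Gsk3b. Of these, 73 were in the exon table and 71 were tested. By limma 0 rose and 0 fell, against 2.22% and 0.144% of all genes, and the median log2 fold change was -0.01 (0.01 over all genes). At an unadjusted limma p under 0.05, 6 were higher and 5 lower in the libraries labelled siZC3H4. Together these were 11 of the 71, where 1915 of all 12482 genes were under that p, a share near the same. Neither edgeR nor DESeq2 on the recovered reads called any of the 71. Some were called without the mean-variance trend, with a replicate block and without siNT replicate 3, as given below with the dependence on processing. The groups did not overlap for 20 genes, of which 11 were higher and 9 lower, where the shares over all genes were 19.5% and 12.8%.

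Of the 18 other Wnt ligand genes, 5 were in the table and 4 were tested. Wnt9a had the largest fold change of these, with 30.0 and 27.7 exon reads in the libraries labelled siZC3H4 and 16, 10.4 and 11.9 in the siNT libraries (log2 1.13 ± 0.36 SE, limma adjusted p = 0.157). The groups did not overlap for Wnt9a, but the call was not made; without the mean-variance trend it passed (limma adjusted p = 0.0430). Wnt5b, which encodes a ligand best known for signalling without β-catenin, had the most exon reads per kb of the ligands with 399 and 348 reads in the libraries labelled siZC3H4 against 236, 336 and 224 in the siNT libraries (log2 0.51 ± 0.21 SE, limma adjusted p = 0.281). Wnt7b overlapped between the groups, with a log2 fold change of -0.01.

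Genes of ligand secretion and processing, Porcn (the acyltransferase that lipid-modifies Wnt proteins), Wls (their carrier) and Notum (a secreted enzyme that inactivates Wnt proteins by removing the lipid), had exon log2 fold changes of 0.18, 0.50 and 0.12, and each overlapped between the groups. All 15 receptor genes were tested and 0 passed. Fzd10 and Fzd5 had the most exon reads per kb of them, with log2 fold changes of 0.26 ± 0.15 (SE) and -0.00 ± 0.14. Fzd2 had the largest difference, with 60.6 and 49.7 exon reads in the libraries labelled siZC3H4 and 34, 29.6 and 40.1 in the siNT libraries (limma adjusted p = 0.308).

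Of 8 genes for secreted modulators in the table, with the receptor gene Kremen1 counted among them, 7 were tested and 0 passed. Sfrp1, a secreted antagonist, had a log2 fold change of -0.03, Kremen1, a receptor for DKK antagonists, of -0.03, and Sfrp4 of -0.49 ± 0.26 (SE). Among genes of receptor turnover, Rnf43, whose ubiquitin ligase removes Frizzled receptors and which is induced by the pathway, had 107 and 120 exon reads in the libraries labelled siZC3H4 and 87, 40.9 and 50.3 in the siNT libraries. Its log2 fold change of 0.99 ± 0.33 (SE) did not pass the limma test (adjusted p = 0.175). Znrf3, its paralogue, lay at -0.28 ± 0.17 and Lgr4, a receptor for R-spondins, at 0.25 ± 0.16. The Dishevelled genes Dvl2 and Dvl3 lay at -0.10 and 0.19.

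All 12 genes of the destruction complex and its regulators were tested, and 3 of them lay above 0 with a median of -0.07. Apc2, a relative of Apc, had the largest difference, with 358 and 380 exon reads in the libraries labelled siZC3H4 and 719, 503 and 488 in the siNT libraries (log2 -0.60 ± 0.19 SE, limma adjusted p = 0.164). Without siNT replicate 3 it was called as a fall (log2 -0.70, limma adjusted p = 0.0283). Csnk1a1, which encodes casein kinase 1 alpha, lay at -0.05 ± 0.16. Of 12 genes for β-catenin, TCF/LEF factors and their partners, 7 lay above 0. Tle3, a Groucho-type co-repressor gene, had 6490 and 6583 exon reads in the libraries labelled siZC3H4 and 5563, 5117 and 6240 in the siNT libraries (log2 0.22 ± 0.12 SE, limma adjusted p = 0.457). Pygo2, a β-catenin co-factor gene, lay at -0.37 ± 0.11 (limma adjusted p = 0.137), with both libraries labelled siZC3H4 below every siNT library.

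Of 13 target genes of β-catenin or TCF7L1, 12 were tested and 0 passed, with 5 above 0 and a median of -0.02. Esrrb, a pluripotency gene that TCF7L1 represses, had 9435 and 11457 exon reads in the libraries labelled siZC3H4 and 11073, 10732 and 11828 in the siNT libraries. Nanog lay at log2 -0.03 ± 0.13 (SE). Myc had the largest difference of the targets, 0.45 ± 0.23 (limma adjusted p = 0.414), and its groups overlapped.

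**Figure D5:**
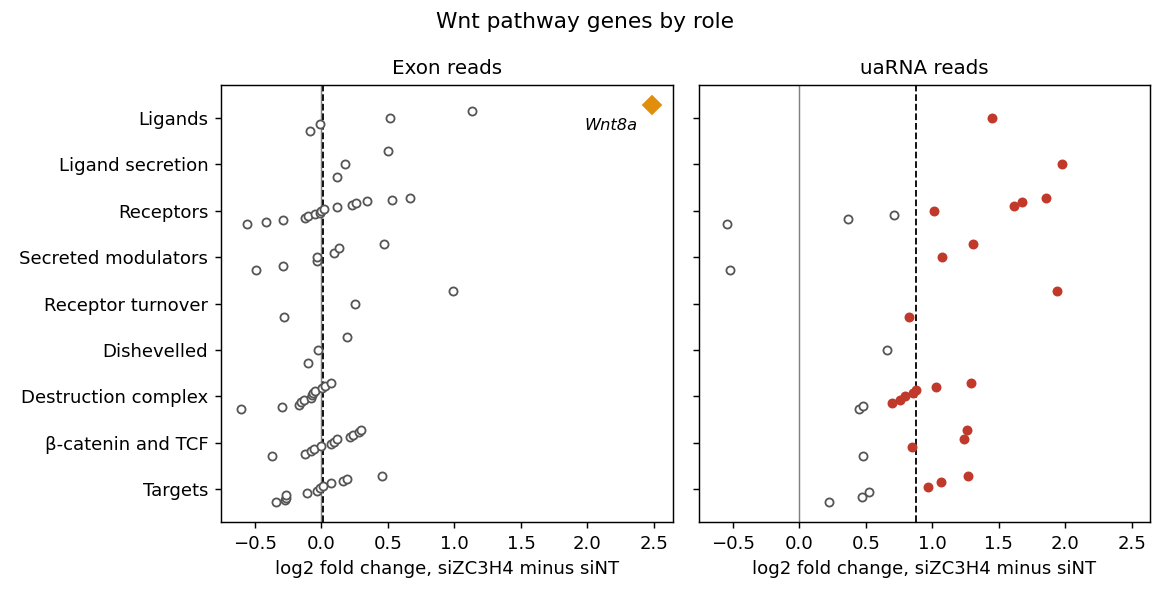
Log2 fold changes (siZC3H4 minus siNT) of tested Wnt pathway genes by role, for exon reads (left) and uaRNA reads (right); each circle is a gene, filled where the limma adjusted p is under 0.05, the dashed line is the median of all features of that table (0.01 and 0.88), and the diamond is Wnt8a, which was not tested. Exon values lie around 0 with no filled circle, and 23 of 34 uaRNAs are filled, at the authors' scaling.

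Of the pathway genes listed, 39 had a uaRNA row and 34 were tested. The uaRNAs of Wnt5b, Fzd6 and Lgr4, all among the rises, had siNT means of 9.02, 9.46 and 5.18 and so reached the minimum mean of 10 through the libraries labelled siZC3H4. Of the 34, 23 rose, 0 fell and 11 did not pass the limma test, against 62.1% and 1.13% of all uaRNAs, and the median log2 fold change was 0.87 (0.88 over all). Without siZC3H4 replicate 2, 11 of the 34 rose, against 35.9% of all uaRNAs in that fit. With factors from the uaRNA values alone, Porcn, Fzd5 and Fzd7 rose and Fzd9, Sfrp2 and Nr5a2 fell, by the median of ratios and by TMM. Over all uaRNAs the shares were then 10.5% and 11.5% (median of ratios) and 10.9% and 11% (TMM), so 3 and 3 of 34 were near the background. At the deposited scaling, the counts by role were 4 of 7 for receptors, 7 of 9 for the destruction complex, 3 of 4 for β-catenin and its partners and 3 of 6 for targets.

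On the log2(value + 1) scale, the largest called changes of the list were those of the uaRNAs of Porcn, Lgr4 and Fzd7, a Frizzled receptor gene. The Porcn uaRNA had 216 and 185 reads in the libraries labelled siZC3H4 and 74, 45.2 and 37.5 in the siNT libraries (1.98 ± 0.29 SE in log2, limma adjusted p = 9.16e-08). The Fzd7 uaRNA had 84.3 and 65.0 reads against 23, 15.7 and 21.3 in the siNT libraries (1.86 ± 0.35 SE in log2, limma adjusted p = 1.22e-05). The uaRNAs of Porcn and Fzd7 also rose under both scalings within the table. The Lgr4 uaRNA, at log2 1.94 ± 0.58 (SE), had 19.2 and 17.2 reads against 6, 8.70 and 0.853 in the siNT libraries. Its place in that order rests on siNT replicate 3, without which its log2 fold change was 1.22, and with a pseudocount of 5 it was 1.27, below Fzd5 at 1.63. It was not called without siZC3H4 replicate 2 (limma adjusted p = 0.0884) or without siZC3H4 replicate 3 (0.0502).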

How the data were processed

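Nascent RNA was measured by TT-seq, and the deposited signal came as 2 tables, of exon reads per gene and of reads per uaRNA region, in which each value was reads divided by 1 depth factor per library. Cutadapt 1.14, DESeq2, featureCounts and STAR, and the builds mm10 and dm6, are named in the submitters' processing notes; order and settings are not given in the sources used here. Per the file headers, the gene table also holds transcript lengths and coordinates as other columns. The factors were 1.767 and 1.046 for siZC3H4 replicates 2 and 3 and 1, 1.15 and 1.172 for siNT replicates 1, 2 and 3, and 100% of values came out as whole reads within 0.01.

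Tests used limma 3.58.1 in R 4.3.3 (lmFit, eBayes with trend) on log2(value + 1), siZC3H4 minus siNT, over all features with a mean of 10 or more (12482 genes, 5124 uaRNAs), adjusted by Benjamini-Hochberg at 0.05. "Rose" and "fell" mean past that threshold. The fit was tested on simulated data in which libraries varied independently, so spread shared between real libraries was not covered. Alternatives were other pseudocounts, filters and scalings, no trend, edgeR 4.0.16 and DESeq2 1.42.0 on recovered reads, a replicate block and leaving out each library. The members and lists were chosen with earlier results of these data known. Named genes were the members, in each role the 2 genes with the most reads per kb and the gene with the largest absolute fold change, the 3 pathway uaRNAs with the largest called changes, up to 3 neighbours on each side within 200 kb of the Fam13b and Wnt8a pair, the 5 genes most like Wnt8a, and markers.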

Additional observations from a re-analysis of the deposited data

How the results depend on the processing

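The difference of Wnt8a lay between log2 2.14 and 2.77 over 14 alternatives, including 2.23 without siZC3H4 replicate 2. Exon changes of Ctnnb1, Apc and Gsk3b kept their sign and did not pass the test in any of 15 alternatives each. With each library left out in turn, Fam13b exons ranged from -0.091 to 0.17 and Axin2 exons from -0.011 to 0.17. A minimum mean of 50 left Wnt8a and the Ctnnb1 uaRNA out. Over all genes, where 277 rose and 18 fell, the counts moved by over 1.5 times to 38 and 0 with no filter on low values, 537 and 97 by DESeq2, and, with 1 library left out, to 10 and 0 (siZC3H4 replicate 2), 80 and 3 (siZC3H4 replicate 3), 2 and 0 (siNT replicate 1), 165 and 11 (siNT replicate 2), and 676 and 138 (siNT replicate 3). Median-of-ratios scaling gave 29 falls and TMM 27. Over all uaRNAs, 3180 rose and 58 fell, against 537 and 590 with median-of-ratios factors from that table, 558 and 563 with TMM, and 1840 and 16 without siZC3H4 replicate 2; falls ranged from 16 to 88 over the alternatives other than these scalings.

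With the replicate number as a replicate block, Tcf7l1 exon reads rose by log2 0.31 (limma adjusted p = 0.0243). Of all 12482 genes 1530 then rose and 830 fell. Of the 71 pathway genes 10 rose and 6 fell, where 0 did without the block, and these shares were near those over all genes. The fall of Apc2 and the rises of Wnt9a and Rnf43 were among them. The labels give shared numbers but no shared batch. Deviations from group means correlated at 0.53 for number 2 and 0.62 for number 3 in the exon table and at 0.38 and 0.43 in the uaRNA table, where the 2 deviations in siZC3H4 mirror each other by construction, and siNT replicate 1 drops out of the blocked comparison. Without the mean-variance trend 1 pathway gene rose by exon reads, Wnt9a (adjusted p = 0.0430), and with each library left out 0 to 1 fell, Apc2 without siNT replicate 3.

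With median-of-ratios or TMM factors from its own values, the uaRNA table lost its median of 0.88, and the uaRNA values became -0.68 and -0.66 for Fam13b, 0.36 and 0.38 for Tcf7l1, -0.38 and -0.35 for Ctnnb1, 0.15 and 0.17 for Apc, and -0.036 and -0.013 for Gsk3b. Of these, Fam13b passed the limma test as a fall with the median of ratios (adjusted p = 0.0491) and not with TMM (0.0566). Of the pathway uaRNAs 3 rose and 3 fell under both scalings. With each library left out 11 to 24 of them rose, and the Apc uaRNA ranged from 0.81 to 1.21. The difference between uaRNA and exon change ranged from 0.014 to 0.30 for Fam13b, 0.057 to 0.76 for Ctnnb1 and 0.73 to 1.31 for Gsk3b. The causes of these changes were not tested.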

Other observations

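Genes arranged like Wnt8a were counted to give its neighbourhood a context, by a rule chosen after the data were seen. Their nearest upstream gene in the table lies on the opposite strand and starts 20 to 50 kb away. Of 908 such genes tested, Wnt8a left out, 17 (1.87%) rose and 1 fell by limma, where 2.22% of all genes rose, and their median log2 fold change was 0.03. Of the 15 among them whose siNT mean lay within the siNT range of Wnt8a, 0 rose by limma, with a median of 0.18. At a share of 2.22%, 0 of 15 carries little weight. These 15 had passed the filter on low values, and any with an siNT mean under its minimum did so through the libraries labelled siZC3H4. The 399 genes of that level, taken without the filter, had a median of 0.39.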
